A study of Homo sapiens with 32 samples.

Results

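Cytosolic ribosomal proteins are the protein part of the 80S ribosome, and their transcripts were followed here in MM.1S cells, an established line of human multiple myeloma, by RNA sequencing of total RNA. The members were the rows of the deposited table whose symbol has the form RPL or RPS followed by a number (with an A, X or L suffix where one exists), with RPLP0, RPLP1, RPLP2 and RPSA. This rule found 83 of 24249 gene IDs, of which 51 belong to the large (60S) subunit and 32 to the small (40S) subunit, on 21 chromosomes. Of these, 82 passed the expression minimum of 0.5 FPM (a library's reads scaled to a fixed total) as the mean of the group means, and the heart and skeletal muscle paralog RPL3L did not, with a mean of 0.086 FPM in ATRA libraries and 0.12 FPM in DMSO libraries.

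All cells were pulsed for 1 h and then kept for 12 h in fresh medium. ATRA+Cfz (1 library) received a pulse of the proteasome inhibitor carfilzomib (Cfz) and then 10 µM all-trans retinoic acid (ATRA), the vitamin A metabolite that binds and switches on the retinoic acid receptors. ATRA (3 libraries) received a vehicle (DMSO) pulse and then 10 µM ATRA, Cfz (1 library) received the Cfz pulse and then DMSO, and DMSO (3 libraries) received vehicle at both steps. No source used here states the Cfz dose, and all groups are 1 cell line in culture.

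Each ribosome carries 1 copy of most of these proteins, so cells make them in matched amounts, and surplus free copies are removed by the ubiquitin-proteasome system that carfilzomib blocks. Most of their messenger RNAs begin with a 5′ terminal oligopyrimidine (TOP) tract, a cytosine followed by an unbroken run of C and T in the gene, through which the kinase complex mTORC1 and the RNA-binding protein LARP1 govern their translation and stability. In plasma cells and myeloma the ribosome serves a large output of secreted protein.

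The TOP tract can be read at the annotated start sites, and it is the sequence feature most of these genes share although the rule did not use it. Of the 83 members, 66 had an entry in the RefSeq promoter table (GRCh38.p14, 250 bases before to 50 after each start). A run of C followed by at least 4 pyrimidines, beginning within 2 bases of an annotated start, was present in 51 of these 66 (77.3%), against 3557 of 27305 genes in the whole table (13.0%). The share was 78.0% for the large and 76.0% for the small subunit. Any annotated start with the run counted for its gene. The 30 bases around the start, 15 on each side, are printed with the pyrimidine run in capitals. For genes with several annotated starts, the start with the longest run was picked. Among the genes printed, RPS19, RPL34 and RPL26L1 have 2 starts each. RPL24 (chr3:101686704-101686733, minus strand), RPS19 (chr19:41860240-41860269, plus strand) and RPL34 (chr4:108620561-108620590, plus strand) are shown because they had the largest rises with ATRA, and RPL28 (chr19:55385917-55385946, plus strand) and RPL41 (chr12:56116618-56116647, plus strand) because they were not called. RPL26 (chr17:8383179-8383208, minus strand) and RPS27 (chr1:153990747-153990776, plus strand) stand beside their paralogs RPL26L1 (chr5:172958714-172958743, plus strand) and RPS27L (chr15:63157463-63157492, minus strand), which have no such run at the annotated start.
RPL24: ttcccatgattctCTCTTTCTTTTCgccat
RPS19: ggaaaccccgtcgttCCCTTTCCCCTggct
RPL34: aaaggcttttttcttCCTCTTCCggggacg
RPL28: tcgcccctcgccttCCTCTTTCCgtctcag
RPL41: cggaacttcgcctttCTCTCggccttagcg
RPL26: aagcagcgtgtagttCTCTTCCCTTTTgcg
RPL26L1: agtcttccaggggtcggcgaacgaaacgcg
RPS27: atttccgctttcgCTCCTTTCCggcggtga
RPS27L: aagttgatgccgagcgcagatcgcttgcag

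Other short motifs were searched on both strands of the same 300 bases. CCGGAAG, the core bound by ETS factors such as GABPA, was found in 24 of the 66 members (36.4%) and in 12.2% of all genes in the table. AAGATGGC, a YY1 motif, was found in 7 members (10.6%) and in 3.52% of all genes, and TATAAA in 6 members (9.09%) and in 14.0% of all genes. A direct repeat of AGGTCA spaced by 5 bases, known for retinoic acid receptors, was in none of the 66 members, and in 2 genes of the whole table. Whether these matches overlap each other or the pyrimidine run was not examined, and a match is a description and not a binding site.

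Depth was 14136937 to 17155331 reads per library, with 4 sequencing lanes of each library averaged and counted once. A floor of 3 reads per library is 0.175 to 0.212 FPM. DMSO 3 stood apart from the other controls: its chi-square per degree of freedom over genes was 9.37 and 9.90 against DMSO 1 and DMSO 2, which differed from each other by 1.74, and ATRA libraries differed among themselves by 1.73 to 2.69. Mitochondrially encoded reads were 5.72% in ATRA+Cfz, 3.67% to 3.89% in ATRA and 5.43% in Cfz, against 4.09%, 4.12% and 5.85% in the DMSO libraries, the last in DMSO 3. All 10 plasma cell markers were detected and summed to 9504 FPM in ATRA+Cfz, 11289 to 11381 FPM in ATRA and 8472 FPM in Cfz, against 8343 to 9788 FPM in DMSO. They did not move as one: with ATRA against DMSO 6 were called higher and 3 lower, beside 21.3% and 27.4% of all genes tested. Markers of T and NK, epithelial and erythroid cells summed to at most 4.37 FPM in any library. The myeloid list summed to 22.6 FPM in Cfz and at most 13.0 FPM elsewhere, most of it from the lysosomal gene CD68, and the stromal list to 24.4 FPM in Cfz and up to 24.1 FPM in DMSO, most of it from the collagen gene COL6A3. Nothing in the labels ties the libraries of a group to separate cultures, so p-values measure the spread between these libraries, which may be technical. The lone ATRA+Cfz and Cfz libraries were assumed to vary like the others, and their differences have no replicate check.

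ATRA raised nearly the whole set by a similar, small amount, in both subunits. In ATRA against DMSO, 46 of 50 large subunit genes tested were higher and 1 was lower, and 32 of 32 small subunit genes were higher (limma, Benjamini-Hochberg adjusted p under 0.05 over 15827 genes). The background was 21.3% of all genes tested called higher and 27.4% called lower. The median log2 fold change was 0.28 for the large and 0.29 for the small subunit, a median fold of 1.22 and 1.23, while the median over all genes tested was -0.03. The middle of the distribution was narrow, with quartiles of 0.21 and 0.33 for the large and 0.23 and 0.35 for the small subunit. In 80 of the 82 genes every ATRA library lay above every DMSO library, a separation that 25.5% of all genes tested showed. The genes without it were RPL28 and RPL39L, of which RPL39L lay below all DMSO libraries.

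**Figure D1:**
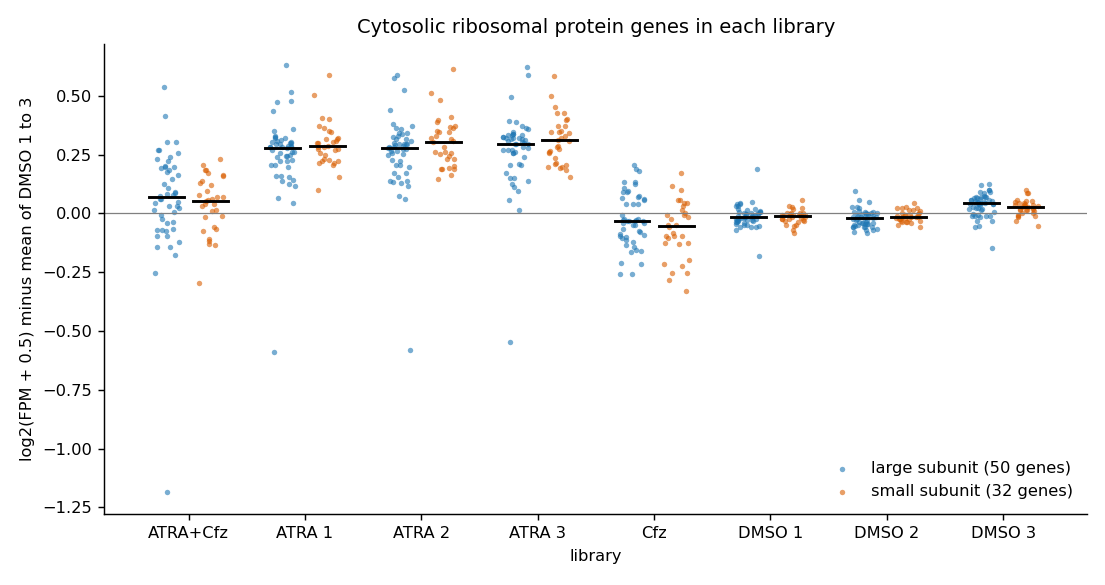
Each point is 1 ribosomal protein gene in 1 library, as log2(FPM + 0.5) minus its mean over DMSO 1 to 3, with large and small subunit genes side by side and black bars at the medians. The ATRA libraries have medians of 0.277 to 0.311, ATRA+Cfz of 0.069 and 0.054, and Cfz of -0.033 and -0.054 for the large and small subunit.

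Added up, the members took 5.040%, 5.056% and 5.104% of all reads in the ATRA libraries, against 4.125%, 4.118% and 4.268% in the DMSO libraries. The 95% Wilson intervals are narrow beside these gaps (5.029% to 5.050% for ATRA 1 and 4.116% to 4.134% for DMSO 1), and cover counting error only. The large subunit genes summed to 30662 ± 181 FPM in ATRA and 25451 ± 556 FPM in DMSO, and the small subunit genes to 20004 ± 152 FPM in ATRA and 16253 ± 296 FPM in DMSO (SD, n = 3 each). The ATRA sums did not overlap the DMSO sums in either subunit. The large to small ratio was 1.533 ± 0.0034 in ATRA and 1.566 ± 0.0088 in DMSO (SD, n = 3 each), and every ATRA library lay below every DMSO library. FPM is a share of reads, so the amount of ribosomal protein RNA per cell was not measured, and in bulk RNA fewer cells of a type and less RNA per cell cannot be told apart.

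The largest rises with ATRA were in a few genes of both subunits. RPL24, which joins the large subunit late and forms part of a bridge between subunits, had 511, 496 and 509 FPM in ATRA libraries, against 333, 320 and 338 FPM in DMSO libraries. RPS19, the small subunit protein most often mutated in Diamond-Blackfan anemia, had 465, 473 and 464 FPM in ATRA libraries, against 310, 306 and 312 FPM in DMSO libraries. The groups were far apart in both, with a log2 fold change of 0.61 (SE 0.03, limma adjusted p = 5.7e-08) for RPL24 and 0.59 (SE 0.03, limma adjusted p = 3.6e-08) for RPS19. RPL34, a component of the large subunit, had 255, 266 and 268 FPM in ATRA libraries, against 179, 179 and 177 FPM in DMSO libraries (log2 fold change 0.55, SE 0.03). These 3 genes rose by 1.47- to 1.53-fold, above the upper quartile of their subunits. RPL23 (0.47), RPL22L1 (0.46), RPS29 (0.45) and RPS18 (0.42) rose by less, and all 4 passed the test.

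At the other end, 3 large subunit genes were not called. RPL28 had 416, 420 and 407 FPM in ATRA libraries, against 403, 385 and 422 FPM in DMSO libraries, and the groups overlapped (log2 fold change 0.04, SE 0.04, limma adjusted p = 0.44). RPL41, which encodes a very short basic peptide, had 1535, 1544 and 1568 FPM in ATRA libraries, against 1450, 1423 and 1527 FPM in DMSO libraries (0.08, SE 0.04, limma adjusted p = 0.10). RPL26L1, a paralog of RPL26, had 33.5, 34.5 and 34.1 FPM in ATRA libraries, against 30.5, 29.7 and 32.6 FPM in DMSO libraries (0.13, SE 0.05, limma adjusted p = 0.062). In RPL41 and RPL26L1 the ATRA libraries lay above all DMSO libraries, of which DMSO 3 was the highest, and without DMSO 3 all 3 genes were called higher. The stalk protein RPLP2 (0.10), RPL27A (0.12) and the paralog RPS27L (0.14) were called, but each lost its call in 8 to 12 of 26 other settings.

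**Figure D2:**
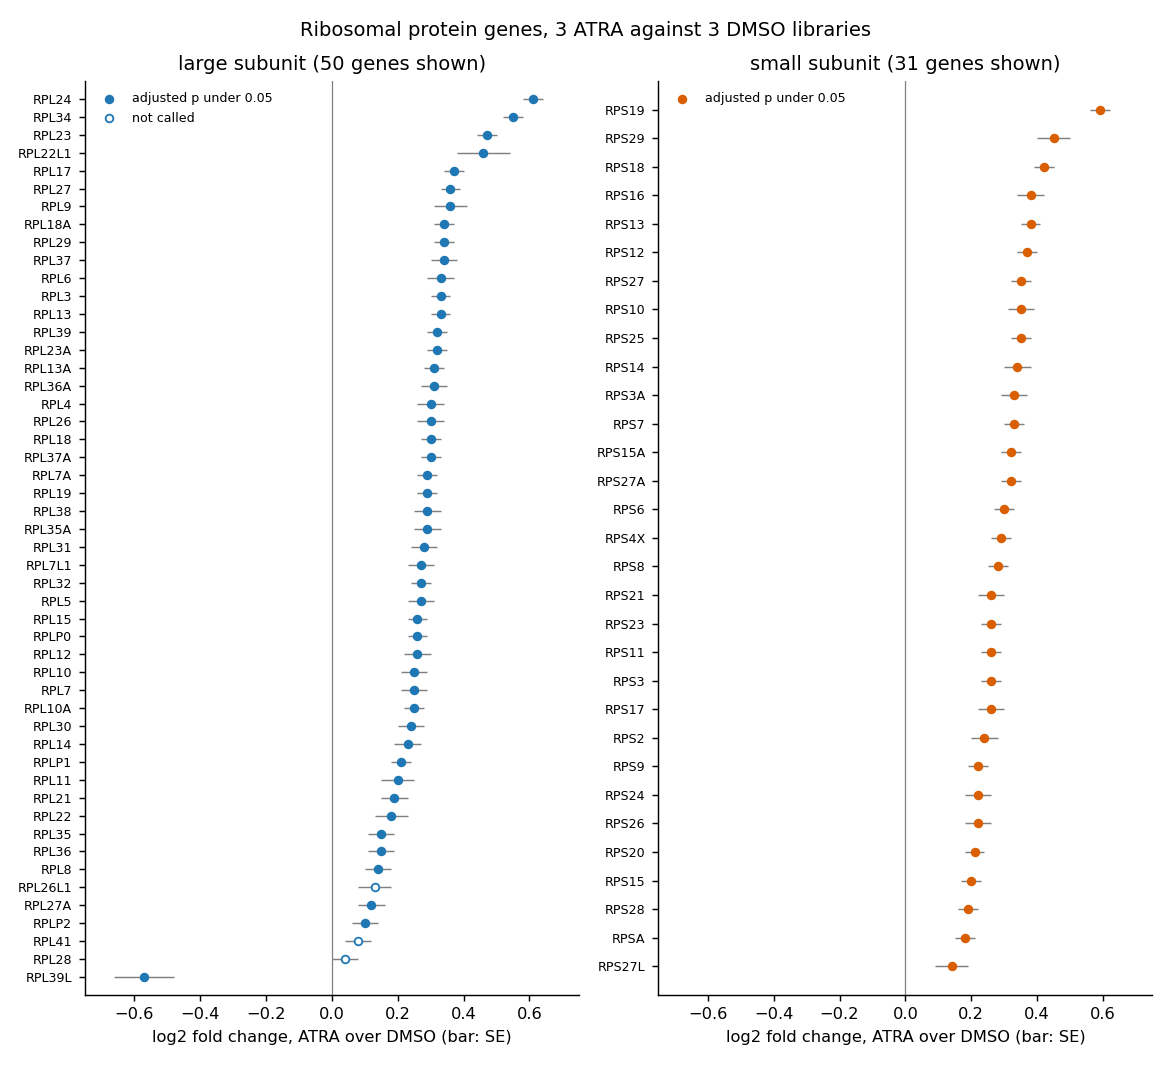
Log2 fold change of the tested genes named here, ATRA over DMSO, sorted within the large (left) and small (right) subunit, with bars of 1 SE and open symbols for genes not called. All values lie above 0 except RPL39L at -0.57, and most lie between 0.2 and 0.4.

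Groups of members with a shared role moved with the rest. The 5S RNP proteins RPL5 and RPL11, which carry the 5S rRNA and bind MDM2 when free, both rose (0.27 and 0.20). The 4 proteins of the stalk and its base, which recruit translation factors, all rose: RPLP0 by 0.26, RPL12 by 0.26, RPLP1 by 0.21 and RPLP2 by 0.10. RPL10 and RPL24, which are among the proteins added late to the 60S particle, rose by 0.25 and 0.61, and RPL23 rose by 0.47. The 4 listed small subunit proteins that are marked with ubiquitin when ribosomes stall or collide rose by 0.35 (RPS10), 0.26 (RPS3), 0.24 (RPS2) and 0.21 (RPS20). RPS27A, made as a fusion with ubiquitin, rose by 0.32, RPS6, the S6 kinase substrate, by 0.30, and RPS14, whose loss marks 5q- syndrome, by 0.34. All 17 listed genes mutated in Diamond-Blackfan anemia rose, with a median of 0.28. Every value in this paragraph is a log2 fold change of ATRA over DMSO called by limma, and 21.3% of all genes tested were called higher.

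The paralogs did not move as one group. Of 6 tested L-type paralogs, counting RPL36AL, which the symbol rule leaves out, 4 rose, RPL39L fell and RPL26L1 was not called. Over all genes tested, 21.3% were called higher and 27.4% lower. Of the 4 that rose, RPS27L lost its call in 12 of 26 other settings. RPL39L, a paralog of RPL39 known mainly from male germ cells, had 13.0, 13.1 and 13.4 FPM in ATRA libraries, against 17.4, 21.2 and 21.1 FPM in DMSO libraries. It was the 1 member called lower (log2 fold change -0.57, SE 0.09, limma adjusted p = 0.00022), while RPL39 rose by 0.32. RPL39L was at 1.94% ± 0.029 of the RPL39 FPM in ATRA and at 3.67% ± 0.36 in DMSO (SD, n = 3 each), with no overlap (two-sided exact permutation test, p = 0.1, the smallest that 3 against 3 can give). These percentages are ratios of FPM within 1 library and are not corrected for transcript length. Every ATRA library lay below all DMSO libraries for RPL39L and above them for RPL39, so the ratios could not overlap. The outcome of the permutation test was thus fixed and adds nothing to those values. In ATRA+Cfz the ratio was 1.51%, and in Cfz it was 3.51%, within the DMSO range of 3.26% to 3.92%.

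RPL22L1, the paralog of RPL22, had 29.4, 30.4 and 27.6 FPM in ATRA libraries, against 24.0, 20.4 and 18.9 FPM in DMSO libraries (0.46, SE 0.08, limma adjusted p = 0.0007), with no overlap between the groups. RPL22 itself rose by 0.18. RPS27L, a paralog of RPS27 induced by p53, rose less than RPS27 (0.14 against 0.35), and was at 7.10% ± 0.24 of RPS27 in ATRA and at 8.24% ± 0.41 in DMSO (SD, n = 3 each). RPL26L1 was at 4.09% ± 0.086 of RPL26 in ATRA and at 4.57% ± 0.052 in DMSO (SD, n = 3 each). RPL7L1 rose by 0.27, and RPL7 by 0.25. No test of the difference between a paralog and its parent was made beyond that for RPL39L.

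**Figure D3:**
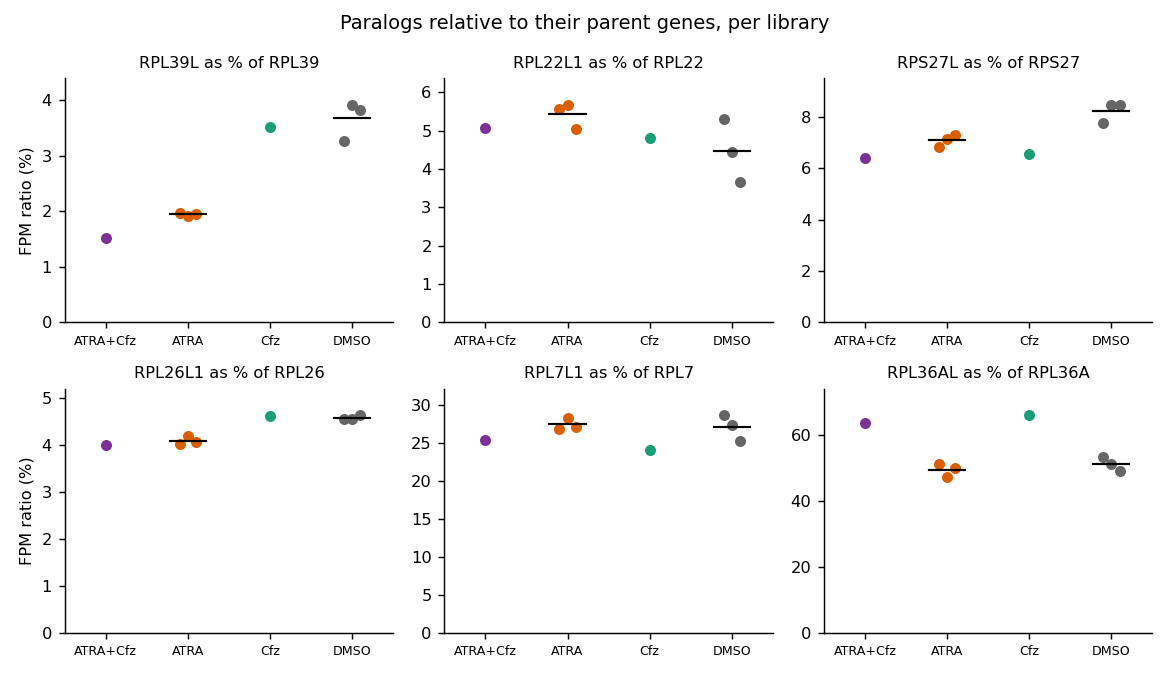
FPM of each paralog as a percentage of its parent gene in the same library, with points for libraries, black bars at the mean of 3 libraries, and axes that start at 0. RPL39L is near 2% of RPL39 with ATRA and 1.51% with ATRA+Cfz, while Cfz and DMSO libraries lie between 3.26% and 3.92%.

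Members with and without the pyrimidine run at the annotated start were called higher in similar shares, which had little room to differ because nearly all members were called. With ATRA against DMSO, 49 of 51 members with the run were called higher (96.1%), as were 14 of 15 without it (93.3%), and both had a median of 0.29. Among other genes tested, 24.4% of 1674 with the run and 22.6% of 8898 without it were called higher, with medians of -0.03 and -0.04. No test was made on these counts. RPL24, RPS19 and RPL34 carry the run, and so do RPL28 and RPL41 (sequences above), while RPS29, which rose by 0.45, has none at its annotated start.

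Lists of other genes of the translation machinery are set beside 21.3% of all genes tested called higher with ATRA and 27.4% called lower, and were not tested against the members. The 3 genes FAU, RACK1 and RPL36AL, which encode ribosomal proteins or a ribosome-bound scaffold but have symbols outside the rule, all rose by 0.25 to 0.29. Of 30 translation factors and related genes known or proposed to have TOP tracts, 21 rose and 2 fell (median 0.19). The elongation factor EEF2 averaged 2697 ± 30 FPM in ATRA and 2083 ± 45 FPM in DMSO (SD, n = 3 each, log2 fold change 0.37, SE 0.04), and the histone and ribosomal protein chaperone NAP1L1 had the largest rise of the list (0.60, SE 0.03). EIF4A2 (-0.24) and the import receptor IPO5 (-0.15) fell. Of 14 snoRNA host genes, 6 rose, among them SNHG29 (0.49) and SNHG5 (0.35), and SNHG12 (-0.30) and SNHG1 (-0.27) fell (median 0.12). Of 19 ribosomal protein chaperones and import factors, 9 rose and 3 fell (median 0.13), with RRS1 at 0.34 and IPO9 at -0.48. Of 78 mitochondrial ribosomal protein genes, 36 rose and 5 fell (median 0.13).

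The genes that govern translation of TOP messengers moved in both directions. Of 23 tested genes of the mTORC1 arm, 7 rose and 4 fell, with a median of 0.01, beside 21.3% of all genes tested higher and 27.4% lower. The mTORC1 inhibitor DDIT4 averaged 76.9 ± 3.2 FPM in ATRA and 6.49 ± 0.61 FPM in DMSO (SD, n = 3 each, log2 fold change 3.47, SE 0.07), the inhibitor DEPTOR fell (-1.15), the nutrient and stress sensors SESN2 and SESN1 rose by 0.77 and fell by 0.55, and LARP1 rose by 0.25. Of 23 tested genes of ribosome quality control, 8 rose and 3 fell (median 0.05), beside the same shares. RNF10, a ligase that marks 40S proteins with ubiquitin, averaged 524 ± 11 FPM in ATRA and 152 ± 8.9 FPM in DMSO (SD, n = 3 each, 1.79, SE 0.04), and PELO, which rescues stalled ribosomes, rose by 0.45. These lists are background to the members and were not tested as sets.

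**Figure D4:**
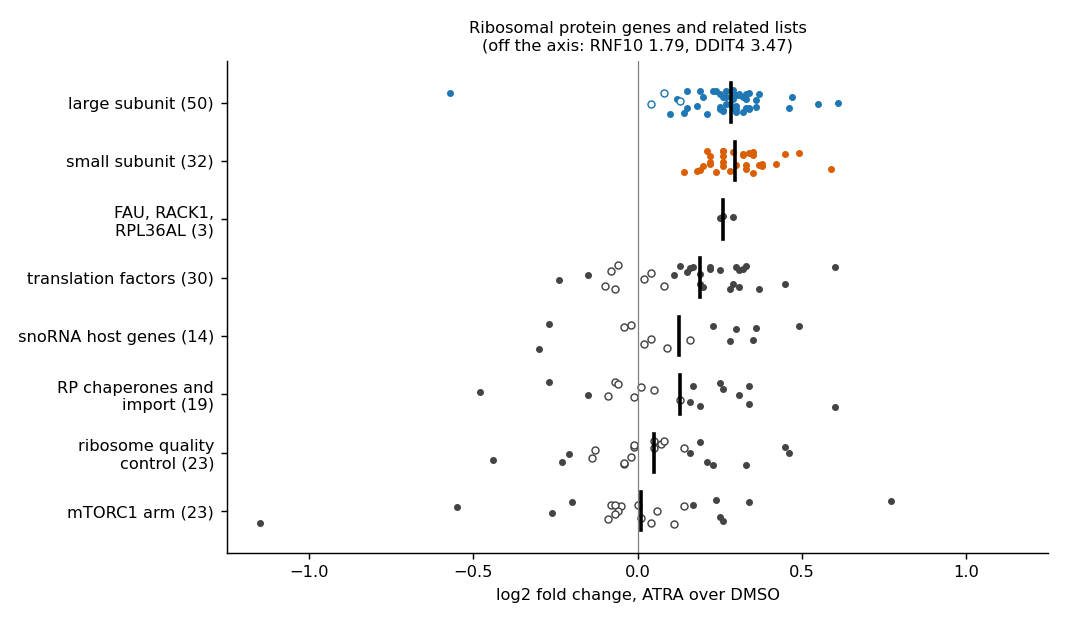
Log2 fold change of ATRA over DMSO for every tested gene of each list (number tested in parentheses), with filled points for called genes, open points for genes not called and black bars at the medians. The medians are 0.28 and 0.29 for the large and small subunit genes, 0.19 for translation factors and 0.01 for the mTORC1 arm, and RNF10 and DDIT4 lie beyond the axis.

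With all 8 libraries in the fit, few members were called for the Cfz pulse alone, which rests on 1 library. The share called lower was near that of all genes tested. Against DMSO, 1 large subunit gene rose and 6 fell, and no small subunit gene rose and 7 fell, that is 1 of 82 higher beside 7.94% of all genes tested and 13 of 82 lower beside 17.0%. The medians were -0.03 for the large and -0.05 for the small subunit, and -0.08 over all genes tested. RPS21, a small subunit protein, had 127 FPM in Cfz, against 159, 157 and 163 FPM in DMSO libraries (log2 fold change -0.33, SE 0.05, limma adjusted p = 0.00093), and RPS27L (-0.28), RPL23A (-0.26) and RPL29 (-0.26) followed. RPL26, which lies near the peptide exit tunnel, was the 1 gene called higher, with 772 FPM in Cfz, against 673, 653 and 705 FPM in DMSO libraries (0.19, SE 0.05, limma adjusted p = 0.018). Cfz lay below all 3 DMSO libraries in 44 of 82 members (46.4% of all genes tested) and above all 3 in 22 (25.3%). The members took 4.098% of reads in Cfz (95% Wilson interval 4.088% to 4.108%). The direction of these counts depended on scaling: with median-ratio factors 2 large and 3 small subunit genes fell and 9 members rose. Over all 15827 genes tested, 1789 fell and 1637 rose with these factors, and 47.8% of all calls were higher in place of 31.8%. Without DMSO 3, 10 large and 12 small subunit genes fell and 18 members rose, beside 3760 of 15836 genes tested lower and 1682 higher. Without DMSO 3 and with median-ratio factors, 4 large and 6 small subunit genes fell and 30 members rose. Over all 15828 genes tested in that fit, 2575 fell and 2350 rose. The subunit medians were then 0.053 and 0.035, which are above 0.

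With ATRA after the Cfz pulse, the medians of the members lay between those of the controls and of ATRA alone. In ATRA+Cfz against DMSO, 16 large subunit genes rose and 4 fell, and 10 small subunit genes rose and 2 fell, beside 20.0% of all genes tested higher and 30.5% lower. The medians were 0.07 and 0.05, and -0.05 over all genes tested. RPL24 had 480 FPM in ATRA+Cfz, against 333, 320 and 338 FPM in DMSO libraries (0.54, SE 0.05, limma adjusted p = 2.4e-06), and RPL23 rose by 0.41 and RPL6 by 0.30. RPL39L fell the most, to 8.43 FPM in ATRA+Cfz (-1.19, SE 0.13, limma adjusted p = 1.0e-05). RPS21 (-0.30), RPL41 (-0.25), RPLP2 (-0.18), RPS28 (-0.13) and RPL29 (-0.12) were the others called lower. ATRA+Cfz lay above all 3 DMSO libraries in 49 of 82 members (36.5% of all genes tested) and below all 3 in 20 (45.0%). The members took 4.411% of reads in this library (95% Wilson interval 4.400% to 4.422%). Without DMSO 3, 13 members were called lower, and 24 large and 14 small subunit genes higher. Over all 15836 genes tested in that fit, 5280 were lower and 3508 higher. RPL29 lost its call in 18 of 24 other settings.

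Against ATRA alone, no member was called higher in ATRA+Cfz, beside 1681 of 15827 genes tested. Called lower were 28 large and 26 small subunit genes, 54 of 82 in all, beside 20.2% of all genes tested. The medians were -0.18 and -0.27, and -0.04 over all genes tested. ATRA+Cfz lay below all 3 ATRA libraries in 78 of 82 members, as it did in 44.9% of all genes tested. RPS29 had 46.0 FPM in ATRA+Cfz, against 66.2, 71.3 and 67.3 FPM in ATRA libraries (-0.56, SE 0.06, limma adjusted p = 1.0e-04), and RPS21 had 130 FPM in ATRA+Cfz, against 187, 197 and 191 FPM in ATRA libraries (-0.56, SE 0.05, limma adjusted p = 2.2e-05). RPL29 and RPL36A (both -0.46), RPS19 (-0.44) and RPS12 (-0.43) were next among genes other than RPL39L (-0.61). RPL36A was the 1 member whose lanes differed beyond sampling noise, and its reads may be shared with RPL36A-HNRNPH2. RPL24 (-0.07), RPL23 (-0.06), RPL5 (-0.03), RPL6 (-0.03) and RPS24 (-0.01) were not called, and RPL5 had 419 FPM in ATRA+Cfz, against 433, 422 and 432 FPM in ATRA libraries. Mitochondrially encoded genes were higher in ATRA+Cfz than in ATRA (11 of 13 called, median 0.76). With FPM rescaled to the total without them, 25 large and 24 small subunit genes were called lower, beside 2855 of 15815 genes tested.

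Against the Cfz library, 11 large subunit genes rose and 1 fell, and 7 small subunit genes rose, beside 12.8% of all genes tested higher and 17.6% lower. The median was 0.12 in each subunit, and -0.00 over all genes tested. RPL24 had 480 FPM in ATRA+Cfz and 356 FPM in Cfz (0.43, SE 0.06, limma adjusted p = 0.0002), RPS19 had 345 FPM in ATRA+Cfz and 266 FPM in Cfz (0.37, SE 0.05), and RPL34 had 215 FPM in ATRA+Cfz and 167 FPM in Cfz (0.36, SE 0.06). The 3 genes with the largest rise with ATRA without the pulse were thus also the 3 with the largest rise after it. RPL39L was the 1 gene called lower (-0.98, SE 0.15, limma adjusted p = 0.00059). Without DMSO 3, 29 large and 16 small subunit genes were called higher and 5 members lower. Over all 15836 genes tested in that fit, 2814 were higher and 3461 lower.

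The log2 fold change with ATRA was lower after the Cfz pulse than without it in 81 of 82 members. The same held in 7667 of 15827 genes tested. Among the 81 was RPL39L, which was -0.98 after the pulse and -0.57 without it. All these differences share 1 ATRA+Cfz and 1 Cfz library, so the genes are not separate observations. The difference, as the ATRA change after Cfz minus the ATRA change without it, had a median of -0.18 in the large and -0.19 in the small subunit, and 0.01 over all genes tested. Tested directly, no large subunit gene and 2 small subunit genes were called lower, beside 1.31% of all genes tested. RPS15 was called just past the threshold (-0.27, SE 0.06, limma adjusted p = 0.046). At an unadjusted p under 0.05 there were 59 members in either direction. The share of all genes at that threshold was not counted, so this number is not read as a result about the members. The count rested on DMSO 3: without that library 38 large and 29 small subunit genes were called lower, beside 6.53% of all genes tested, and with any other 1 of the DMSO or ATRA libraries left out none was. Over these fits with 1 library left out the median ranged from -0.189 to -0.169 for the large and from -0.205 to -0.183 for the small subunit. With median-ratio factors the share of all calls across genes that were higher was 22.6% in place of 43.1%. In that fit 3 large and 5 small subunit genes were called lower, beside 419 of 15827 genes tested. Over the 77 tested members that are not L-type paralogs, the ATRA change with the pulse and the one without it, which share no library, had a Pearson r of 0.87 across genes.

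**Figure D5:**
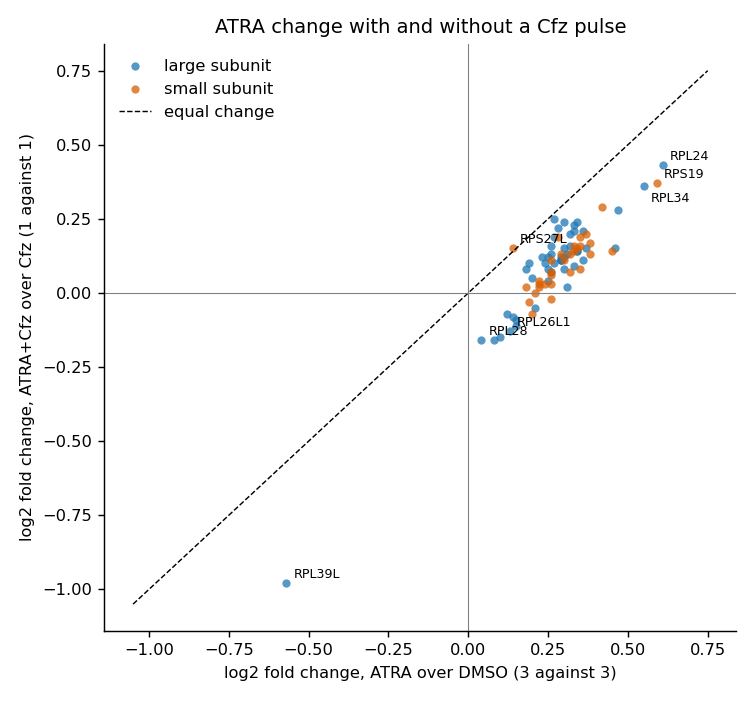
Each point is 1 gene, with its log2 fold change of ATRA over DMSO (3 against 3 libraries) on the x axis and of ATRA+Cfz over Cfz (1 against 1) on the y axis, and a dashed line where both are equal. All genes but RPS27L, at 0.14 and 0.15, lie below the line, and RPL24, RPS19 and RPL34 are highest on both axes.

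Of the 5 comparisons listed next, the medians of the subunits were furthest apart in ATRA+Cfz against ATRA, where 28 of 50 large and 26 of 32 small subunit genes were called lower. No test of the difference between subunits was made. The large minus small difference of the medians was -0.01 in ATRA against DMSO, 0.02 in Cfz against DMSO, 0.01 in ATRA+Cfz against DMSO, -0.01 in ATRA+Cfz against Cfz and 0.09 in ATRA+Cfz against ATRA. The large to small ratio of summed FPM was 1.579 in ATRA+Cfz, 1.530 to 1.537 in the ATRA libraries and 1.587 in Cfz, against 1.556 to 1.572 in the DMSO libraries. Both libraries with the pulse thus lay above all others, and all ATRA libraries below all others. The order of the groups differed when the 10 most abundant members of each subunit were left out, with ratios of 2.097 in ATRA+Cfz, 1.954 to 1.973 in ATRA, 2.081 in Cfz and 1.992 to 2.043 in DMSO, where ATRA+Cfz in place of Cfz was the highest.

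Base composition and abundance moved with some of these values. Across the 77 members, GC content of the transcripts had a Pearson r of -0.18 with the ATRA change against DMSO, of -0.43 with the ATRA+Cfz change against DMSO and of -0.34 with the ATRA+Cfz change against ATRA, and transcript length had an r of -0.07, 0.12 and 0.19 with the same values. Log2 mean FPM had an r of -0.16, 0.25 and 0.42 with the same values. With the difference of the ATRA changes, r was -0.40 for GC content, 0.25 for transcript length and 0.35 for log2 mean FPM. The points share the same 8 libraries. Processed pseudogenes also take up reads of these genes: the table holds 136 such rows for 50 members, and for 5 members they hold over 10% of the reads of gene and pseudogenes together (RPL9 55.6%, RPL23A 45.7%, RPL21 25.1%, RPS28 18.1% and RPL22 12.2%). The values of these 5 genes are uncertain for that reason. With the pseudogene reads added to the parent, 46 large and 32 small subunit genes were again called higher with ATRA.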

How the data were processed

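Total RNA of MM.1S cells was sequenced as 8 libraries on 4 lanes each. The authors deposited FPM per gene and lane, a CPM unit. Per the submitters' processing notes the tools were fastp 0.20.0, kallisto 0.46.2 and DESeq2 (version not listed). No source used here states the genome build, annotation or strand setting. The table has 24402 lines for 24249 gene IDs, and the 143 IDs on several lines carry 1 value per lane and were used once. The values gave whole reads for 100% of entries within 0.01 reads.

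From these values, lanes were averaged per library and limma 3.58.1 (R 4.3.3) was fitted with an intensity trend to log2(FPM + 0.5) of all 8 libraries, with 4 residual and 7.21 prior degrees of freedom. Genes needed a mean of the 4 group means of at least 0.5 FPM (15827 genes), and a call is a Benjamini-Hochberg adjusted p under 0.05 over all of them. Fold changes are on the log2(FPM + 0.5) scale and understate those of low genes. On the recovered reads, edgeR 4.0.16 called 7748 genes for ATRA against DMSO and DESeq2 1.42.0 called 5869. The limma fit was run on simulated counts with known changes in ATRA against DMSO only and the same spread for every gene. That check does not cover the comparisons with lone libraries or the way DMSO 3 stood apart. Tables were made with Python 3.11.15, pandas 2.3.3, numpy 2.4.6 and scipy 1.17.1. Transcript length and GC come from GENCODE 29, and start sequences from RefSeq (GRCh38.p14).

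The members, gene lists and tests were chosen with earlier results of these data known. Named genes are those of the role lists, the 5 largest and 5 smallest changes per subunit and comparison, members called against the majority, members below the minimum or with differing lanes, and the 4 genes of smallest p in each related list. LARP1, EIF4A2, IPO5, SNHG12 and SNHG1 fall outside that rule and were chosen after their values were seen. Some genes are not reported here by name and are left out of the plots of single genes, and counts over the members include them. Other scalings, tools, filters, single lanes, left-out libraries, a GC and length correction and added pseudogene reads were tried as alternatives.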

Additional observations from a re-analysis of the deposited data

Results flagged for a closer look

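The ATRA change of RPS15, a small subunit protein near the decoding site, differed with and without the Cfz pulse by a direct test of that difference (limma, Benjamini-Hochberg over all genes tested). The difference was -0.27 on the log2 scale (adjusted p = 0.046): ATRA+Cfz had 343 FPM and Cfz 360 FPM, while ATRA libraries had 419, 413 and 415 FPM and DMSO libraries 359, 362 and 364 FPM. Over the 24 other settings the adjusted p ranged from 6.5e-05 to 0.39 for RPS15, which lost its call in 13. The test rests on 1 ATRA+Cfz and 1 Cfz library. RPS3, at -0.27, had an adjusted p of 0.05 and was not called.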

How the results depend on the processing

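The ATRA against DMSO counts held best: 46 large and 32 small subunit genes higher became 43 to 49 and 31 to 32 with 1 library left out, and 1 lower stayed 1 except in lane 2 alone (0, where RPL39L was -0.40 with adjusted p = 0.067). Replicate numbers do not pair the libraries (same-numbered correlations of -0.00584, -0.00206 and 0.00555), and with the replicate block 45 large and 32 small subunit genes were higher and 1 lower (44, 32 and 1 with GC and length correction as well).

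Leaving out 1 library at a time gave, for Cfz against DMSO, 3 to 10 large and 7 to 12 small subunit genes lower and 1 to 18 members higher. For ATRA+Cfz against DMSO it gave 16 to 24 and 7 to 14 higher and 4 to 13 lower, against ATRA 23 to 40 and 23 to 31 lower and 0 higher, and against Cfz 7 to 29 and 4 to 16 higher and 1 to 5 lower. For the difference of the ATRA changes it gave 0 to 38 and 0 to 29 lower and 0 higher. The upper ends all came without DMSO 3, whose part was not explained by any value here. Without DMSO 3, chosen after seeing the data, 45 large and 31 small (median-ratio) or 36 and 28 (edgeR) had the lower difference. So did 1610 of 15828 (median-ratio) and 968 of 15827 (edgeR) genes tested. The same 2 fits gave 30 and 24 members higher in Cfz against DMSO, 34 and 35 large and 21 and 24 small higher in ATRA+Cfz against DMSO (3 lower with edgeR), 28 and 37 large and 16 and 20 small higher against Cfz (7 and 3 lower), and 1 higher against ATRA with edgeR. Over all genes tested, Cfz against DMSO had 2350 and 2095 higher and 2575 and 3002 lower. ATRA+Cfz against DMSO had 4048 and 4281 higher and 4686 and 4380 lower. Against Cfz there were 2709 and 3178 higher and 3584 and 2968 lower.

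For Cfz against DMSO, large subunit genes lower were 2 with median-ratio and DESeq2, 3 with TMM and edgeR, 1, 1, 2 and 3 in lanes 1 to 4 alone and 10 with GC and length correction. Small subunit genes lower were 3 with median-ratio, 2 with DESeq2, and 1, 3 and 3 in lanes 1 to 3. Members higher were 9 with median-ratio, 6 with TMM, edgeR and DESeq2, 3 with robust moderation, 0 in lanes 1 and 3 and 2 in lane 2. For ATRA+Cfz against DMSO, 26 large were higher with edgeR, 5, 5 and 4 small in lanes 1, 2 and 4, and 3 members were lower with median-ratio, TMM, edgeR, DESeq2 and lanes 3 and 4, and 2 in lane 1. For ATRA+Cfz against Cfz, large higher were 17 with edgeR and with GC and length correction, and 6, 3, 7 and 4 in lanes 1 to 4, small higher were 4 with median-ratio and 3, 3, 2 and 2 in lanes 1 to 4, and members lower were 2 with robust moderation, lane 2 and GC and length correction, and 0 in lane 3. For the difference of the ATRA changes, large lower were 3 with median-ratio, 1 with TMM and 4 with DESeq2 and robust moderation, and small lower were 5 with median-ratio and DESeq2, 4 with robust moderation and 0 with no minimum, without mitochondrial genes, edgeR, each lane alone and GC and length correction.

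Named genes changed sign in 69 fits, none called in either fit. In ATRA+Cfz against ATRA these were RPL12 (0.01 to 0.02 with median-ratio, TMM, DESeq2, without mitochondrial genes, lanes 2 and 4 and without ATRA 1, 0.04 with edgeR), RPS24 (0.00 to 0.04), RPL26 (0.01 and 0.02), RPL5 (0.00, 0.01 and 0.02) and RPL6 (0.00, 0.01 and 0.02), with RPS24 at 0.01, 0.02 and 0.03 in single settings. In ATRA+Cfz against Cfz they were RPS20 (0.00, 0.01, 0.03, 0.04 and 0.06), RPS28 (0.00, 0.01, 0.02 and 0.03), RPS3 (0.01, 0.02 and 0.03), RPS15 (0.06), RPS26 (-0.02 and -0.18) and RPL26L1 (0.22). In Cfz against DMSO they were RPL26L1 (-0.04) and RPS26 (-0.07), and in ATRA+Cfz against DMSO RPL36 (0.04), RPS27L (0.06) and RPS29 (0.10). In the difference of the ATRA changes they were RPL22L1 (0.19), RPL26L1 (0.01), RPL31 (0.00), RPL5 (0.00 and 0.05) and RPS27L (-0.00, -0.01, -0.02, -0.03, -0.04, -0.09 and -0.17). In the fits with a sign change the cause was not tested, and of the other named values 171 lost and 141 gained a call.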
